A study of Mus musculus with 3 samples.

Results

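The myosin intron miRNAs are the products of 3 hairpins, Mir208a, Mir208b and Mir499, each of which lies inside an intron of a gene for a myosin heavy chain, the motor protein of the sarcomere. They were chosen by name, with earlier results of these data known, and are 3 of the 1148 mouse miRNA hairpins to which the reads were matched. The 3 hairpins give 6 mature arms, named 5p or 3p for the side of the hairpin they come from. Reads were found for 5 of the 6 arms, and these 5 are among the 265 miRNAs that reached 50 reads over both libraries together, the minimum for a ratio.

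The cells sequenced were HL-1, a contracting line derived from mouse atrial cardiomyocytes that express a viral T antigen. They were harvested 48 h after transfection with 9 µl of a 20 µM siRNA stock, and no other treatment separates the groups in the labels. By title, the library labelled siSrf1 and the library labelled siSrf2 received different siRNAs against Srf, the gene of the muscle transcription factor SRF; each group has 1 library, and a library titled siNon, for an unspecific siRNA, was not analysed here. The siRNA entries of these samples read otherwise: Srf si2 stands with the title siSrf1, and siNon with the title siSrf2.

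Reads of the Srf duplexes themselves were used to check those labels. Inserts on both strands at nt 1878 to 1901 of the Srf mRNA had 19 reads in the library labelled siSrf1 (exact 95% Poisson interval 11.4 to 29.7) and 1230 reads in the library labelled siSrf2 (1162 to 1301). At nt 2111 to 2131 they had 17 reads in the library labelled siSrf1 (9.90 to 27.2) and 0 in the library labelled siSrf2, where a count of 0 allows up to 3. The 1230 duplex reads contradict the entry siNon of the library titled siSrf2. They do not tell which Srf siRNA each library received, so the conflict between the title siSrf1 and its entry Srf si2 is not settled. The libraries are named by their titles throughout, and no value below shows what depends on Srf.

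No group has a replicate, so no p-value is given, and every interval covers counting error only. The libraries held 14911499 reads (siSrf1) and 14518157 reads (siSrf2), of which 5305179 and 4618880 were assigned to miRNAs. The marker miRNAs listed for cardiac muscle (miR-208a, miR-208b, miR-499, miR-1a and miR-133a) all had reads and summed to 63.9% of miRNA reads in the library labelled siSrf1 and 53.0% in the library labelled siSrf2, nearly all of it miR-1a. Of the other cell types listed, the 4 markers of smooth muscle and fibroblasts (miR-143, miR-145a, miR-199a and miR-214) summed to 2.52% in siSrf1 and 2.46% in siSrf2. In RPM (reads per 1000000 miRNA reads), siSrf1 and siSrf2 in turn, miR-199a had 17560 and 14530, miR-143 had 7407 and 9418, miR-145a had 162 and 651, and miR-214 had 38.8 and 27.7. The endothelial miR-126a had 589 and 513 RPM, the 3 blood markers summed to 83.1 and 91.6, the 2 neuronal ones to 22.1 and 26.8, and the liver miR-122 had 6.97 and 13.0. None of these lists was at 0, and skeletal muscle miR-206 had 4.90 and 3.68 RPM.

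A miRNA is cut from a hairpin in a primary transcript, which for these 3 is the pre-mRNA of the host myosin gene. The arm that is loaded into an Argonaute protein pairs with target mRNAs mainly through its seed, bases 2 to 8 from the 5′ end. In the mouse heart, Myh6 encodes the fast alpha myosin heavy chain of the adult, Myh7 encodes the slow beta chain of the fetal heart and of slow skeletal muscle, and Myh7b encodes a slow-type chain; miR-208a, miR-208b and miR-499 are known for a part in the balance between these fast and slow myosin programmes.

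All 3 hairpins lie on the coding strand of their host genes (NCBIM37 genome, GENCODE vM1 annotation). Mir208a is at chr14:55567897-55567979, in intron 29 of Myh6, which has 39 exons; the intron is 542 nt long and the hairpin starts 195 nt from its 5′ end. Mir208b is at chr14:55594537-55594613, in intron 31 of Myh7, which has 41 exons; the intron is 461 nt long and the hairpin starts 102 nt from its 5′ end. Mir499 is at chr2:155448616-155448694, in intron 19 of Myh7b, which has 42 exons; the intron is 481 nt long and the hairpin starts 158 nt from its 5′ end. Myh6 and Myh7 are neighbours on the minus strand of chromosome 14, and Myh7b lies on the plus strand of chromosome 2. The hairpins are shown whole, 5′ to 3′ and from RefSeq, because the choice of arm is the main difference between them; capitals mark the annotated 5p and 3p arms.
Mir208a: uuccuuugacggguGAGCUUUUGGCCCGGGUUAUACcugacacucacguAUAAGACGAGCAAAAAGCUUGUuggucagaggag
Mir208b: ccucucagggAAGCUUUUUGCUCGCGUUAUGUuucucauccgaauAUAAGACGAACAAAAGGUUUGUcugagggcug
Mir499: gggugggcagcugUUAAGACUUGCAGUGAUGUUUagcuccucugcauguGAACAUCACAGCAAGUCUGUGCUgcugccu

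The mature arms are listed with the seed in capitals, since the seed is what groups them into families.
miR-208a-3p: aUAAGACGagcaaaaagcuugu
miR-208b-3p: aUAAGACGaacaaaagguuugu
miR-499-5p: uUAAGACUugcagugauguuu
miR-208a-5p: gAGCUUUUggcccggguuauac
miR-208b-5p: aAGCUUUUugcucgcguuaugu
miR-499-3p: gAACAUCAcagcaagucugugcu
The 3p arms of Mir208a and Mir208b share the seed UAAGACG with each other and with no other of the 1679 mature mouse miRNA names in the RefSeq table. They are identical at 19 of 22 bases and differ by G10A, A16G and C18U (miR-208a-3p base, position from 1 at the 5′ end, miR-208b-3p base). miR-499-5p comes from the opposite arm of its hairpin and has a seed, UAAGACU, that no other name in the table carries. Its bases 2 to 7 equal those of both miR-208 3p arms, and G8U is the one seed difference; over 21 positions it is identical to miR-208a-3p at 12 and to miR-208b-3p at 10. The 5p arms of Mir208a and Mir208b share the seed AGCUUUU with each other and with miR-6415. Each whole mature sequence occurs at 1 place in the genome, while the first 18 nt of miR-499-5p occur at 2 places, on chromosomes 2 and 14.

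Together the 3 hairpins gave 74415 reads in the library labelled siSrf1 and 64645 in the library labelled siSrf2, which is 1.40% of miRNA reads in both (exact Clopper-Pearson 95% intervals 1.39 to 1.41 in both). miR-499-5p supplied nearly all of them. It had 73297 reads in the library labelled siSrf1 and 63387 in the library labelled siSrf2, or 13816 (13716 to 13917) and 13724 (13617 to 13831) RPM, and ranked 8 among all miRNAs in each library. Of the reads of the 3 hairpins it made up 98.5% (98.4 to 98.6) in siSrf1 and 98.1% (97.9 to 98.2) in siSrf2.

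miR-208b-3p, from the intron of the beta chain gene, was second and far below. Its 829 reads in the library labelled siSrf1 and 864 in the library labelled siSrf2 came to 156 (146 to 167) and 187 (175 to 199.96) RPM, rank 79 in both. miR-499-5p was 88.4 times as frequent as miR-208b-3p in siSrf1 (82.6 to 94.8) and 73.4 times in siSrf2 (68.6 to 78.5). That fold depends on the counting by more than these intervals. With exact matches only it was 107.9 in siSrf1 and 89.6 in siSrf2, and with 1 mismatch allowed inside the insert 84.4 and 70.2. With 12 nt of adapter and 1 mismatch it was 100.5 and 83.0. Counted by the first 18 nt, with or without an adapter match, it was 106.1 and 87.9.

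Reads from Mir208a, in the intron of the alpha chain gene, were fewer still and came mostly from the 5p arm. miR-208a-5p had 194 reads in the library labelled siSrf1 and 306 in the library labelled siSrf2, which is 36.6 (31.6 to 42.1) and 66.2 (59.0 to 74.1) RPM. miR-208a-3p, the arm that shares the seed of miR-208b-3p, had 66 and 65 reads, which is 12.4 (9.62 to 15.8) and 14.1 (10.9 to 17.9) RPM. Summed over both arms, Mir208b was read 3.19 times as often as Mir208a in siSrf1 (2.77 to 3.68) and 2.33 times as often in siSrf2 (2.06 to 2.64). Between the arms that share a seed, miR-208b-3p was 12.6 times as frequent as miR-208a-3p in siSrf1 (9.77 to 16.4) and 13.3 times in siSrf2 (10.3 to 17.4). That fold depends on counting reads with untemplated 3′ bases: with exact matches only, it was 17.7 in siSrf1 (654 and 37 reads) and 24.3 in siSrf2 (680 and 28 reads).

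The least read arm with any reads was miR-499-3p, the partner strand of miR-499-5p, with 29 reads in the library labelled siSrf1 and 23 in the library labelled siSrf2 (5.47 and 4.98 RPM). miR-208b-5p had 0 reads in both; a count of 0 allows up to 3 reads, or 0.565 RPM in siSrf1 and 0.650 in siSrf2. The order of the 6 arms was therefore the same in both libraries, and no neighbours in it had overlapping intervals within a library. How efficiently each sequence entered the libraries was not tested, so these are levels of reads.

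**Figure D1:**
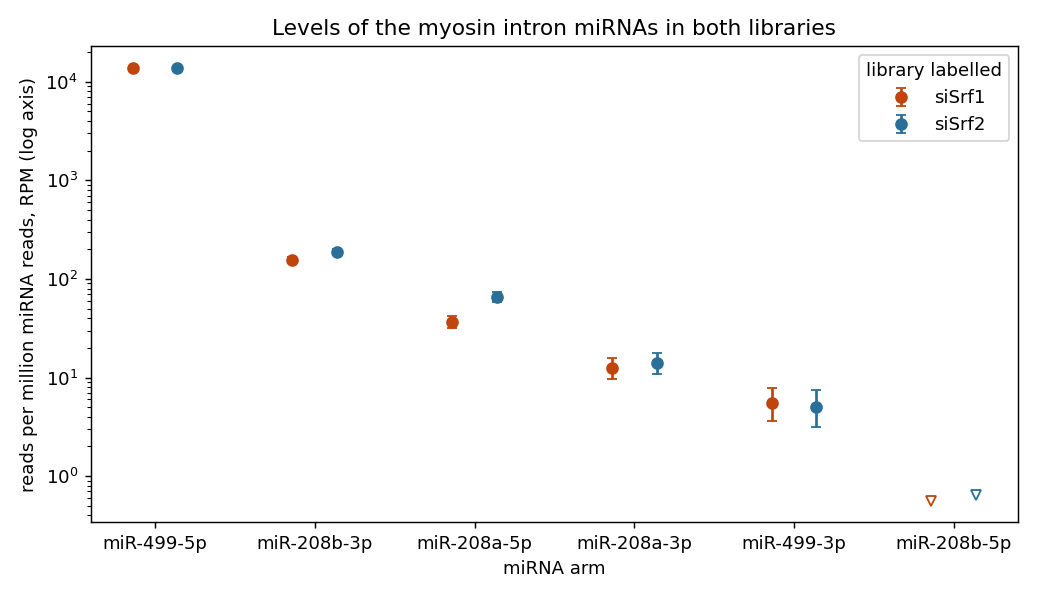
RPM (log axis) of the 6 arms in the library labelled siSrf1 (left point of each pair) and the library labelled siSrf2 (right point), 1 library each. Bars are exact 95% Poisson intervals, hidden by the symbol where narrow, and open triangles mark the 3 reads that a count of 0 allows; miR-499-5p stands at 13816 and 13724, miR-208b-5p has no reads.

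The 3 hairpins differed in which arm was kept. Mir499 gave its 5p arm in 99.96% of reads in both libraries, and Mir208b gave its 3p arm only. The 5p share of Mir208b was 0% of 829 reads in siSrf1 (0 to 0.444) and 0% of 864 reads in siSrf2 (0 to 0.426). Mir208a gave both arms, with a 5p share of 74.6% in the library labelled siSrf1 (68.9 to 79.8) and 82.5% in the library labelled siSrf2 (78.2 to 86.2). Mir208a and Mir208b, whose 3p arms have the same seed, thus differed in their leading arm in both libraries. miR-208a-5p was 2.94 times as frequent as miR-208a-3p in siSrf1 (2.21 to 3.95) and 4.71 times in siSrf2 (3.59 to 6.25), and with exact matches only 4.68 and 9.89 times. The arm shares of the 2 libraries overlap in their intervals for each hairpin.

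**Figure D2:**
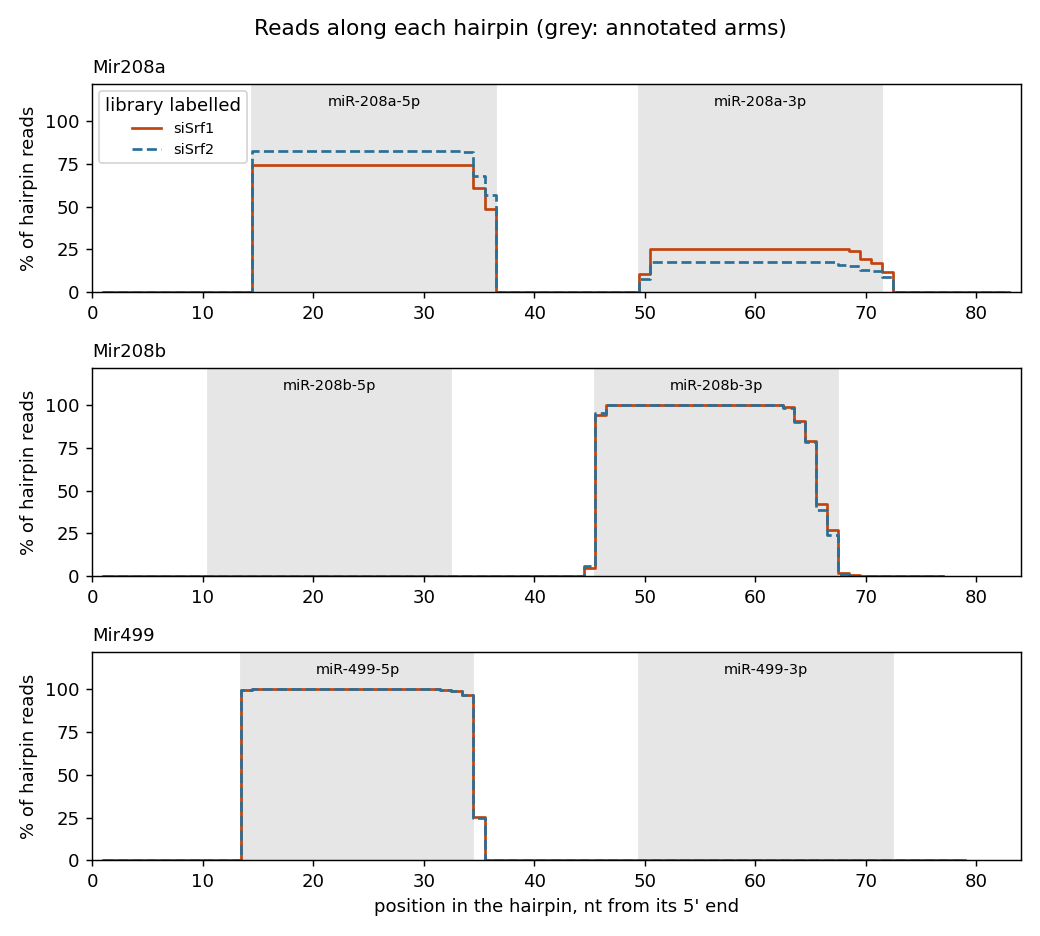
Share of each hairpin's reads (y axis, percent) that cover each position from the 5′ end of the hairpin (x axis, nt), for the library labelled siSrf1 (solid) and the library labelled siSrf2 (dashed), with annotated arms in grey. Mir208a has reads on both arms, Mir208b on its 3p arm and Mir499 on its 5p arm, where 25.5% (siSrf1) and 24.97% (siSrf2) of reads run 1 nt past the annotated end.

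Inserts from elsewhere in the host genes were rare. Counting those with a single place in the genome (judged by their first 18 nt), in sense and outside the hairpin, exons of Myh6 had 8 reads in the library labelled siSrf1 and 6 in the library labelled siSrf2, exons of Myh7 had 12 and 11, and exons of Myh7b had 2 and 1. Such inserts from introns numbered 2 and 3 in Myh6 and 0 and 1 in Myh7b, and Myh7 had none. Intron inserts with several genome places were more frequent in the library labelled siSrf2 (38 and 141 reads in sense in Myh6, 27 and 138 in Myh7), and they cannot be placed in these genes. Exon inserts with several genome places, which cannot be placed either, had 28 and 30 reads in sense in Myh6, 4 and 3 in Myh7, and 2 and 0 in Myh7b.

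Between the libraries, no arm of the 3 hairpins was past the size rule, which asks for a difference of at least 2-fold with the whole exact binomial 95% interval on 1 side of 0. That is 0 of 5 measured arms, against 67 of 265 measured miRNAs (25.3%), all of which were higher in the library labelled siSrf2 under this scaling. The background depends on the scaling: with TMM factors 39 were higher in siSrf2 and 3 in siSrf1, and with median-of-ratios factors 43 and 3, while the count of arms stayed at 0. The log2 ratio of siSrf1 over siSrf2, scaled to miRNA totals, had a median of -0.41 over all 265 miRNAs (quartiles -1.005 and -0.08) and of -0.18 over the 5 arms, of which 3 were below 0 and 2 above. Other scalings move the median of all miRNAs, by up to 0.49 for TMM factors, and move every arm with it, so each ratio is also set against that median.

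miR-499-5p had a log2 ratio of 0.01 (-0.01 to 0.03), which lies 0.42 above the median of all miRNAs; 213 of the 265 had a lower ratio. Its levels of 13816 and 13724 RPM differed by less than their counting error under this scaling, and its ratio ran from -0.01 to 0.50 over the alternatives tried. miR-499-3p had a log2 ratio of 0.13 with a wide interval (-0.71 to 0.99), 0.54 above the median.

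miR-208a-5p was the arm furthest from 0. Its log2 ratio was -0.86 (-1.12 to -0.59), a level 1.81-fold higher in the library labelled siSrf2, with the interval below 0 but short of the size rule. It lay 0.44 below the median of all miRNAs, with 82 of the 265 lower still, and kept its sign under every alternative tried (-0.90 to -0.37). Scaled to miRNA totals, most measured miRNAs were also higher in the library labelled siSrf2 (211 of 265 below 0). With TMM factors the median log2 ratio of all was 0.08, so that majority rests on the scaling. Of the 4 smooth muscle and fibroblast markers listed above, miR-145a and miR-143 had more RPM in siSrf2 and miR-199a and miR-214 fewer. The summed share of the 4 markers was 2.52% in siSrf1 and 2.46% in siSrf2. Their part in this difference was not tested. The other arm of the same hairpin, miR-208a-3p, had a log2 ratio of -0.18 (-0.69 to 0.34), 0.23 above the median of all miRNAs, with an interval that overlaps that of miR-208a-5p.

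miR-208b-3p had a log2 ratio of -0.26 (-0.40 to -0.12), 0.15 above the median of all miRNAs. The sign of its ratio and of the ratio of miR-208a-3p turned with the scaling: with TMM factors they were 0.23 for miR-208b-3p and 0.31 for miR-208a-3p. No direction can be given for either.

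**Figure D3:**
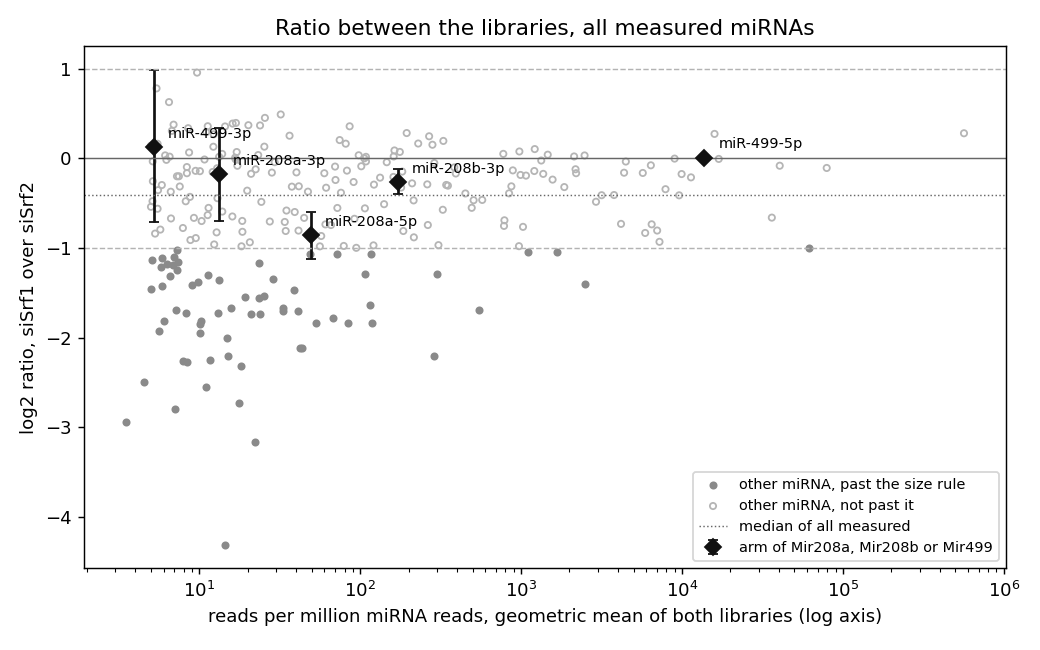
Log2 ratio of the library labelled siSrf1 over the library labelled siSrf2 (y axis) against the geometric mean of RPM in both (x axis, log scale) for 265 miRNAs, with exact binomial 95% intervals for the 5 arms of Mir208a, Mir208b and Mir499. Filled grey points are past the size rule, dashed lines mark 2-fold and the dotted line the median of -0.41; none of the 5 arms is past the rule, and the signs of miR-208b-3p and miR-208a-3p turn with the scaling.

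Other miRNAs of striated muscle were set beside them from a fixed list of 6, of which 5 were measured and 1 was past the size rule, beside 25.3% of all measured miRNAs; their median log2 ratio was -0.01, against -0.41 over all. miR-1a-3p, the leading miRNA of the cells, had 3308388 reads in the library labelled siSrf1 and 2371548 in the library labelled siSrf2, with a log2 ratio of 0.28. miR-133a-3p, made from the same transcripts as miR-1a, had 6168.5 and 11119 reads; its log2 ratio was -1.05 (-1.10 to -1.005), the one member past the rule. That call rests on the scaling: the ratio was -0.94 with the total of all inserts of 15 nt or longer, -0.76 without the 5 most abundant miRNAs, -0.64 with median-of-ratios and -0.56 with TMM factors, none of them past the rule. miR-133b-3p shares reads with it and is uncertain at -0.97, and at -1.09 without shared inserts, which is past the rule. miR-378a-3p, from an intron of Ppargc1b, was at -0.01, sharing reads with miR-378c, and miR-486a-5p, from an intron of Ank1, was at 0.19. miR-206-3p, a skeletal muscle miRNA, had 26 and 17 reads and was not measured.

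The miRNAs whose levels in the 2 libraries were nearest to each arm were found by the distance of log2 RPM over 2 libraries, which is a description of level only. miR-499-5p was nearest to miR-199a-3p and miR-199b-3p, which have the same mature sequence (distance 0.35), then to let-7g-5p (0.42) and miR-378a-3p (0.42). miR-208b-3p was nearest to miR-29b-3p, miR-23b-5p and miR-148a-3p, and miR-208a-5p to miR-125b-1-3p, miR-183-5p and miR-652-3p. miR-208a-3p was nearest to miR-421-3p, miR-24-2-5p and miR-1983, and miR-499-3p to miR-511-3p, let-7i-3p and miR-24-1-5p.

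The 5′ end of a mature arm sets its seed, and the arms differed in how sharply it was cut. miR-208a-5p began at the annotated base in all of its 194 reads in the library labelled siSrf1 and all of its 306 in the library labelled siSrf2. miR-499-5p did so in 99.4% (99.3 to 99.5) of reads in siSrf1 and 99.5% (99.4 to 99.5) in siSrf2. miR-208b-3p did so in 89.9% (87.6 to 91.8) in siSrf1 and 89.9% (87.7 to 91.9) in siSrf2, with 4.70% and 5.79% starting 1 nt upstream and 5.31% and 4.17% starting 1 nt downstream. In the other miRNAs with at least 50 reads, the share of the main start had a median of 98.4% in siSrf1 (182 miRNAs) and 97.8% in siSrf2 (210 miRNAs).

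miR-208a-3p was split between a pair of starts. In the library labelled siSrf1, 37 of 66 reads (56.1%, 43.3 to 68.3) began 1 nt downstream of the annotated base and 28 (42.4%) at it; in the library labelled siSrf2 the numbers were 37 of 65 (56.9%, 44.0 to 69.2) and 28 (43.1%). The share of its main start was below that of all but 7 of 182 other miRNAs in siSrf1 and all but 15 of 210 in siSrf2. The leading shifted insert and the insert equal to the annotated arm are shown because the shift changes the seed; capitals mark bases 2 to 8, in DNA letters as read.
miR-208a-3p, start 1 nt downstream: tAAGACGAgcaaaaagcttgttt
miR-208a-3p, annotated start: aTAAGACGagcaaaaagcttgt
The shifted insert had 21 reads in siSrf1 and 20 in siSrf2, and the annotated one 10 and 7. The seed of the shifted form, AAGACGA, is carried by none of the other mature names in the table. The shifted reads thus do not share the annotated seed of miR-208b-3p. The 2 arms are identical over bases 1 to 9, however, so miR-208b-3p reads that start 1 nt downstream carry AAGACGA too. There were 44 such miR-208b-3p reads in siSrf1 and 36 in siSrf2.

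miR-499-3p was shifted the same way in nearly all reads. In the library labelled siSrf1, 27 of 29 began 1 nt downstream of the annotated base (93.1%, 77.2 to 99.2), and in the library labelled siSrf2 all 23 did (lower limit 85.2%). Its leading insert, shown with bases 2 to 8 in capitals, had 14 and 5 reads and ends in a base that the hairpin does not hold.
miR-499-3p, leading insert: aACATCACagcaagtctgtgctt

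The main 3′ end took a smaller share of reads than the main start in each of the 5 arms, with separate intervals for miR-499-5p, miR-208b-3p and miR-208a-5p. For miR-499-5p, the part that matches the hairpin ended at the annotated base in 71.1% of reads in the library labelled siSrf1 (70.7 to 71.4) and 71.8% in the library labelled siSrf2 (71.5 to 72.2), and 1 nt beyond it in 25.5% and 24.97%. Both forms are shown, with the seed in capitals, since they make up most of the reads of the whole group.
miR-499-5p, annotated end: tTAAGACTtgcagtgatgttt
miR-499-5p, 1 nt longer: tTAAGACTtgcagtgatgttta
The first had 50467 reads in siSrf1 and 44062 in siSrf2, and the longer one 17791 and 14981. Inserts of miR-499-5p were mainly 21 nt long (69.6% and 70.2%) or 22 nt (26.2% and 25.6%). For miR-208a-5p the matching part ended at the annotated base in 64.9% in siSrf1 (57.8 to 71.6) and 68.6% in siSrf2 (63.1 to 73.8). In most other reads it ended 1 or 2 nt earlier.

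In miR-208b-3p the part that matches the hairpin most often ended short of the annotated end. In the library labelled siSrf1 it ended 2 nt before that end in 37.0% of reads (33.7 to 40.4) and at it in 24.97% (22.1 to 28.1). In the library labelled siSrf2 the shares were 39.4% (36.1 to 42.7) and 22.7% (19.9 to 25.6). With untemplated 3′ bases included, inserts were mainly 20 nt long (31.8% in siSrf1, 32.3% in siSrf2) or 22 nt (32.4% and 30.4%). The 2 leading inserts of miR-208b-3p are shown to place its ends, with the seed in capitals.
miR-208b-3p, 2 nt shorter: aTAAGACGaacaaaaggttt
miR-208b-3p, annotated end: aTAAGACGaacaaaaggtttgt
The shorter one had 216 reads in siSrf1 and 232 in siSrf2, and the full one 192 and 184. In miR-208a-3p the part that matches the hairpin most often ended 1 nt beyond the annotated end, with 43.9% of reads in siSrf1 (31.7 to 56.7) and 52.3% in siSrf2 (39.5 to 64.9). The hairpin base there is U, so a cut 1 nt downstream and a T added at the annotated end cannot be told apart.

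Bases added to the 3′ end that the hairpin does not hold, of the kind that terminal transferases add, ranged widely over the arms. miR-499-5p had 1 or 2 such bases in 3.69% of reads in the library labelled siSrf1 (3.56 to 3.83) and 3.89% in the library labelled siSrf2 (3.74 to 4.04), a share below that of all but 9 of 182 and 13 of 210 other miRNAs, whose medians were 16.2% and 17.4%. The hairpin base after the annotated end of miR-499-5p is A, so an A added there counted as templated. Any such reads fall in the form 1 nt longer (25.5% in siSrf1, 24.97% in siSrf2), so its low share depends partly on this sequence. miR-208a-5p had 10.8% (6.83 to 16.1) in siSrf1 and 9.48% (6.44 to 13.3) in siSrf2. miR-208b-3p had 21.1% (18.4 to 24.05) and 21.3% (18.6 to 24.2), and a pair of T was counted as added in 51 of 829 reads in siSrf1 and 49 of 864 in siSrf2. After a matching part 2 nt short, such a pair equals the annotated arm with the G before its last base read as T. An added pair and a single base change cannot be told apart there.

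miR-208a-3p carried added bases in 43.9% of reads in the library labelled siSrf1 (31.7 to 56.7) and 56.9% in the library labelled siSrf2 (44.0 to 69.2), with a single T counted as added in 22 and 21 reads. The added bases went with the start. Among reads that began 1 nt downstream they were found in 27 of 37 in siSrf1 (73.0%) and 28 of 37 in siSrf2 (75.7%), and among reads with the annotated start in 1 of 28 (3.57%) and 9 of 28 (32.1%). miR-499-3p carried them in 25 of 29 reads in siSrf1 (86.2%, 68.3 to 96.1) and 18 of 23 in siSrf2 (78.3%, 56.3 to 92.5), so that 4 and 5 of its reads matched the hairpin throughout. Within each arm the intervals of the 2 libraries overlapped.

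**Figure D4:**
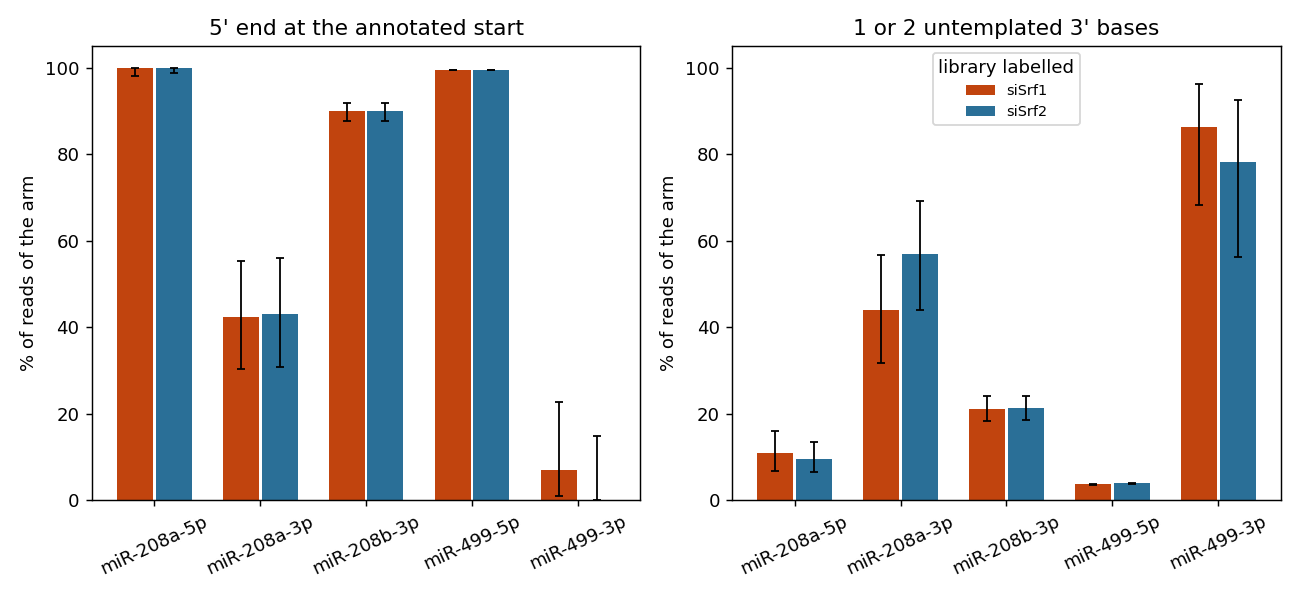
Share of reads of each arm (y axis, percent) that begin at the annotated 5′ base (left panel) and that carry 1 or 2 untemplated 3′ bases (right panel), in the library labelled siSrf1 (left bar of each pair) and the library labelled siSrf2 (right bar), with exact Clopper-Pearson 95% intervals. miR-208a-3p begins at the annotated base in 42.4% and 43.1% of reads, and untemplated bases run from 3.69% and 3.89% in miR-499-5p to 86.2% and 78.3% in miR-499-3p.

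Single base changes within the first 18 nt were counted for the 2 most read arms, with positions from 1 at the 5′ end, the annotated base first. miR-499-5p had any single change in 7.79% of such reads in the library labelled siSrf1 (7.61 to 7.98) and 6.43% in the library labelled siSrf2 (6.25 to 6.62), against medians of 11.7% over 34 and 9.84% over 38 other miRNAs with at least 5000 reads. The most frequent was C11A, at 0.985% in siSrf1 and 0.604% in siSrf2, where the median C-to-A change of those miRNAs was 0.302% and 0.286%. Their C-to-A changes ran from 0.0783% to 1.88% in siSrf1 and from 0.0314% to 1.92% in siSrf2, ranges that hold both C11A values. A-to-G changes, the kind that adenosine deamination would give, lay in miR-499-5p between 0.0258% (A6G) and 0.0692% (A12G) in siSrf1 and between 0.0252% (A6G) and 0.0708% (A12G) in siSrf2, against medians of 0.0567% and 0.0570%. In miR-208b-3p the highest A-to-G change was A9G, with 4 reads in siSrf1 (0.531%, 0.145 to 1.35) and 2 in siSrf2 (0.256%, 0.0310 to 0.922). The interval lies above the median in siSrf1 and holds it in siSrf2. Both values lie within the A-to-G range of the miRNAs compared, 0.00745% to 1.14% in siSrf1 and 0% to 0.941% in siSrf2. In the same arm any single change was found in 15.3% (12.9 to 17.8) and 14.6% (12.4 to 17.04), led by T18G at 3.72% and 2.50%. Position 18 is also the last base of the shortest inserts counted, where a change and an added base cannot be told apart.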

How the data were processed

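The libraries come from an Illumina small RNA kit and a Genome Analyzer, per the labels. The authors deposited a raw count of reads for every distinct 36 nt sequence, with the 3′ adapter still in place; any read filter is not given in the sources used here. The adapter was found from the bases after annotated mature miRNAs. Reads were cut at its first 8 nt without mismatch, or at a shorter match (4 nt or more) ending the read; inserts of 15 nt or longer without N were kept (59.4% of reads in siSrf1, 57.2% in siSrf2). Inserts of 18 to 25 nt (7748874 and 7013026) were matched to 1148 hairpins, 1005 from the RefSeq table (GRCm38.p6) and 143 added from GENCODE vM1 on NCBIM37. A match had at least 16 templated bases and 0 to 2 untemplated 3′ bases, and inserts that matched several hairpins were shared equally. All members matched the RefSeq table by symbol.

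Log2 ratios used a pseudocount of 0.5 reads. Groups follow the sample titles. Shares have Clopper-Pearson and counts Poisson 95% intervals, except that a count of 0 is given a fixed limit of 3 reads. The exact Poisson interval of a count of 0 reaches 3.69 reads. Reads are not independent molecules, since the libraries have no molecular identifiers. The members, the lists and the rule for the miRNAs named (all 6 arms, the muscle list, and the 3 miRNAs nearest in level to each measured arm; the 3 most read inserts per arm for isoforms) were chosen with earlier results of these data known. The count of adapter-free reads, and the minimum of 50 reads for isoform shares of other miRNAs, were chosen after seeing the data. Matching and the size rule were tested on simulated data. Software: Python 3.11.15, numpy 2.4.6, scipy 1.17.1, pandas 2.3.3, pysam 0.24.0, and, for scaling alternatives only, edgeR 4.0.16 and DESeq2 1.42.0 in R 4.3.3.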

Additional observations from a re-analysis of the deposited data

Results flagged for a closer look

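Reads in which no adapter match was found were left out of the counts in the report, and some of them begin with the first 18 nt of the most read insert of a member arm. For miR-499-5p there were 24855 such reads in the library labelled siSrf1 and 19735 in the library labelled siSrf2, equal to 33.9% and 31.1% of the reads counted. For miR-208b-3p there were 94 and 75 (11.3% and 8.68%), for miR-208a-5p 31 and 49 (16.0% in both), and for miR-499-3p 7 and 6 (24.1% and 26.1%). For miR-208a-3p there were 5 in siSrf1, above the 3 reads that a count of 0 allows, and 1 in siSrf2. Counted by the first 18 nt with or without an adapter match, miR-499-5p had 99205 reads in siSrf1 and 83738 in siSrf2, and 0 arms of the 3 hairpins were past the size rule.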

How the results depend on the processing

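No paired analysis was possible because neither group has a second library. Under all 16 alternatives 0 arms of the 3 hairpins were past the size rule. Over all miRNAs, the number higher in siSrf1 was 1 instead of 0 with inserts of 20 to 24 nt, with reads counted by their first 18 nt, with sequences seen once left out, with the total of all inserts of 15 nt or longer and with a minimum of 10 reads, 2 with a total without the 5 most abundant miRNAs, and 3 with TMM and with median-of-ratios factors. The number higher in siSrf2 was 39 with TMM, 43 with median-of-ratios factors, 107 with a minimum of 10 reads and 18 with a minimum of 500 reads, instead of 67; the minimums test more or fewer miRNAs. These scalings add 0.49 (TMM), 0.41 (median-of-ratios) and 0.29 (without the 5 most abundant) to every log2 ratio, which turned miR-208a-3p to 0.31, 0.23 and 0.11 and miR-208b-3p to 0.23, 0.15 and 0.027. With exact matches only, miR-208a-3p was at 0.18 and miR-499-5p at -0.0076, and with 12 nt of adapter and 1 mismatch miR-499-3p was at -0.0051. Exact matches only also moved the 5p share of Mir208a to 82.4% in siSrf1 and 90.8% in siSrf2, since they drop the tailed 3p reads, and that of Mir499 to 99.99% in both. miR-499-3p fell under 50 reads, with no ratio, with exact matches only, with sequences seen once left out and with 12 nt of adapter without mismatch. Depth limits the arms of Mir208a and miR-499-3p.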
